A study of Mus musculus with 9 samples.

Results

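The genes described here are 10 components and targets of the Wnt and beta-catenin pathway: the receptor Lgr4, the receptor-removing ubiquitin ligases Rnf43 and Znrf3, the scaffolds Apc, Axin1 and Axin2, the Dishevelled antagonist Nkd1, beta-catenin itself (Ctnnb1) and the DNA-binding partners Tcf7l2 and Lef1. They were taken by gene symbol from a table of estimated RNA counts, in which all 10 were found among 53647 genes. All 10 also passed the filter on low counts that left 13661 genes for testing. The samples were cultures of Hepa 1-6, a mouse hepatoma cell line, grown in medium with serum and antibiotics. A control guide (sgControl), a guide against Usp5 or a guide against Ythdf1 gave 3 groups of 3 samples each, 9 in all. Usp5 encodes a deubiquitinase and Ythdf1 a reader of N6-methyladenosine in mRNA, and the study asked which genes, immune genes above all, respond alike to the loss of either. Usp5 was targeted with a lentiviral CRISPR vector and Ythdf1 with a CRISPR/Cas9/EGFP plasmid, per the labels. Knockout cells were grown as single-cell clones. The labels do not say how many clones were sequenced or whether replicates are separate cultures, so a p-value below covers just the variation among these libraries, possibly technical, and clone and genotype cannot be told apart.

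As background, Wnt proteins bind Frizzled and Lrp5 or Lrp6 at the cell surface and thereby halt a cytoplasmic complex of Apc, Axin and kinases that otherwise marks beta-catenin for destruction. Beta-catenin that escapes enters the nucleus and switches on target genes through proteins of the Tcf and Lef family. Several targets, among them Axin2, Nkd1, Rnf43 and Znrf3, feed back to dampen the signal. In the liver the pathway is known for setting the gene programme of hepatocytes around the central vein, and its genes are often mutated in liver tumours.

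The targeted transcripts followed the labels. Usp5 RNA was 54.0% of control in the Usp5 knockout by the fitted fold (122.8, 112.8 and 110.4 against 233.5, 223.6 and 183.5 CPM, counts scaled to library size), and Ythdf1 RNA was 25.6% of control in the Ythdf1 knockout (49.2, 45.7 and 49.9 against 190.2, 180.8 and 194.7 CPM). Total counts per sample ran from 24760877 to 42989715. Counting error was largest for Lef1 and Lgr4, which had 150 to 777 counts in a sample. Tcf7l2 came next, with 625 at the lowest, and the other genes had at least 1699 in every sample. Hepatocyte and hepatoma markers (10 of 10 tested, Afp and Alb the most abundant) summed to 2669 to 2726 CPM in controls, 3154 to 3531 CPM in the Usp5 knockout and 4100 to 4344 CPM in the Ythdf1 knockout, while Apoa1, Ttr and Serpina1a stayed under 3 CPM in every group mean. Leukocyte markers (4 of 8 tested, Cd3e at 0) summed to at most 17.2 CPM and endothelial markers (1 of 7 tested) to at most 1.3 CPM. Fibroblast and stellate cell markers (3 of 8 tested, Lrat at 0) summed to 856 to 1415 CPM, nearly all of it Dcn (means of 999, 1237 and 1152 CPM), while Col1a1 and Des averaged under 1.2 CPM in every group. The part of these marker differences in the results below was not tested. Control replicate 3 stood apart in its mitochondrial share, 5.91% of counts against 2.33% and 2.32% in the other controls. That share ran from 3.67% to 6.14% in the Usp5 knockout and from 3.51% to 4.96% in the Ythdf1 knockout. In bulk RNA, fewer cells with a transcript and less of it per cell cannot be told apart.

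Per unit of gene length, the pathway genes ranged from 1.67 to 283 RPKM in control means. Ctnnb1 led at 283 ± 31.2 RPKM (RPKM, reads scaled to library size and gene length; SD, n = 3), at the 98.3 percentile of all genes tested. Axin2 and Nkd1 followed at 115 ± 5.38 and 99.9 ± 11.3 RPKM, and their controls overlapped. Axin1 (29.6 ± 3.30 RPKM) and Rnf43 (26.7 ± 1.5 RPKM) also overlapped each other, as did Apc (10.6 ± 2.84 RPKM) and Tcf7l2 (9.25 ± 3.83 RPKM). Znrf3 lay between those pairs at 15.6 ± 0.80 RPKM. Lgr4 (3.51 ± 0.015 RPKM) and Lef1 (1.67 ± 0.58 RPKM) were lowest and did not overlap. The counted lengths of the 10 genes were 2207 to 8984 bases and their GC content 44.3% to 56.6%. Axin2, Rnf43 and Znrf3 are on chromosome 11, and the others are each on a chromosome of their own. The order changed in the knockouts. Nkd1 overtook Ctnnb1 in the Usp5 knockout, at 293 ± 19.6 against 208 ± 12.2 RPKM with no overlap, and Tcf7l2 moved above Znrf3 there, at 22.8 ± 5.37 against 17.7 ± 0.19 RPKM. In the Ythdf1 knockout Nkd1 stood above Axin2, at 150 ± 1.73 against 103 ± 1.27 RPKM, again with no overlap.

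**Figure D1:**
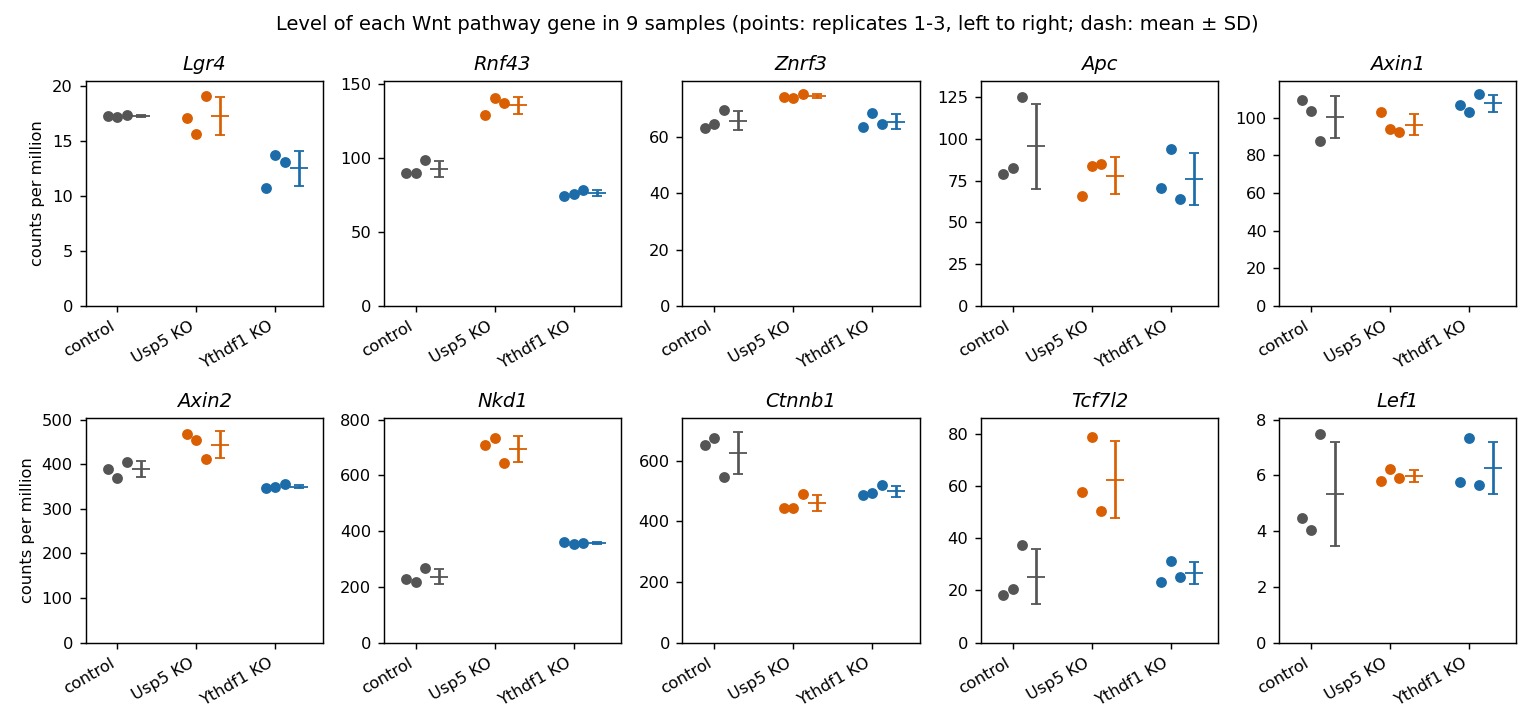
Level of each of the 10 genes in CPM (vertical axes start at 0 and differ between panels) by group; points are replicates 1 to 3 from left to right and dashes with bars are the mean ± SD. Nkd1 is highest in the Usp5 knockout (643 to 732 CPM), between in the Ythdf1 knockout (352 to 360 CPM) and lowest in controls (216 to 267 CPM), and control replicate 3 is the highest control for Apc, Tcf7l2 and Lef1.

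In the Usp5 knockout, Nkd1, Tcf7l2 and Rnf43 rose and Ctnnb1 fell, while the other 6 genes did not pass the test. Nkd1 rose 2.93-fold, Tcf7l2 2.48-fold and Rnf43 1.46-fold, and Ctnnb1 dropped to 73.7% of control. So 4 of 10 passed an adjusted p of 0.05 (edgeR's quasi-likelihood test on all 9 samples, Benjamini-Hochberg adjustment over all genes), where 19.8% of all genes tested did, 9.96% higher and 9.8% lower. At least 2-fold changes that passed were seen for 2 of 10, Nkd1 and Tcf7l2, and for 5.64% of all genes. Groups did not overlap for 6 of 10 genes, Axin2 and Znrf3 besides those 4, against 33.2% of all genes. The median log2 fold change was 0.18 over the 10 genes and -0.01 over all genes tested. The count over all genes, 2700, was 4371 without control replicate 3, 1736 without control replicate 1, 1494 without control replicate 2 and 1626 without Usp5 knockout replicate 2. The count over the pathway genes was 6 of 10 without control replicate 3, which added Znrf3 and Lef1, and 6 of 10 with DESeq2, which added Axin2 and Znrf3.

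In the Ythdf1 knockout, Nkd1 rose 1.51-fold, while Rnf43, Lgr4 and Ctnnb1 fell to 82.3%, 72.5% and 80.0% of control. Thus 4 of 10 passed the same test, where 46.5% of all genes tested did (23.7% higher and 22.8% lower), a share close to that background. The largest of these changes, that of Nkd1, was under 2-fold, a size that 9.15% of all genes reached with a call. Groups did not overlap for 5 of 10 genes, Axin2 besides those 4, against 57.1% of all genes. The median log2 fold change was -0.08 over the 10 genes and 0.02 over all genes. Scaled by library size alone, without the TMM factors of edgeR, the median of all genes moved by -0.14 in this comparison and by -0.08 in the Usp5 comparison. The genes called then split into 2159 higher and 4185 lower rather than 3231 and 3119, and in the Usp5 comparison into 1026 higher and 1833 lower rather than 1361 and 1339. Both knockouts are set against the same 3 control samples, so their fold changes are not independent of each other.

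The knockouts were also compared directly, which uses no control sample for the difference itself. Usp5 and Ythdf1 were targeted with different vectors, so vector, clone and genotype cannot be told apart in this comparison. Rnf43, Nkd1, Tcf7l2, Lgr4, Axin2 and Znrf3 were higher in the Usp5 knockout and passed the test, 6 of 10 against 48.5% of all genes tested (23.3% higher and 25.2% lower). The difference in Tcf7l2 exceeded 2-fold, as did called differences of 12.1% of all genes. Groups did not overlap for these 6 and for Axin1, against 59% of all genes. Ctnnb1, Apc, Axin1 and Lef1 did not pass in either direction. The median log2 difference was 0.27 over the 10 genes and 0.00 over all genes.

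**Figure D2:**
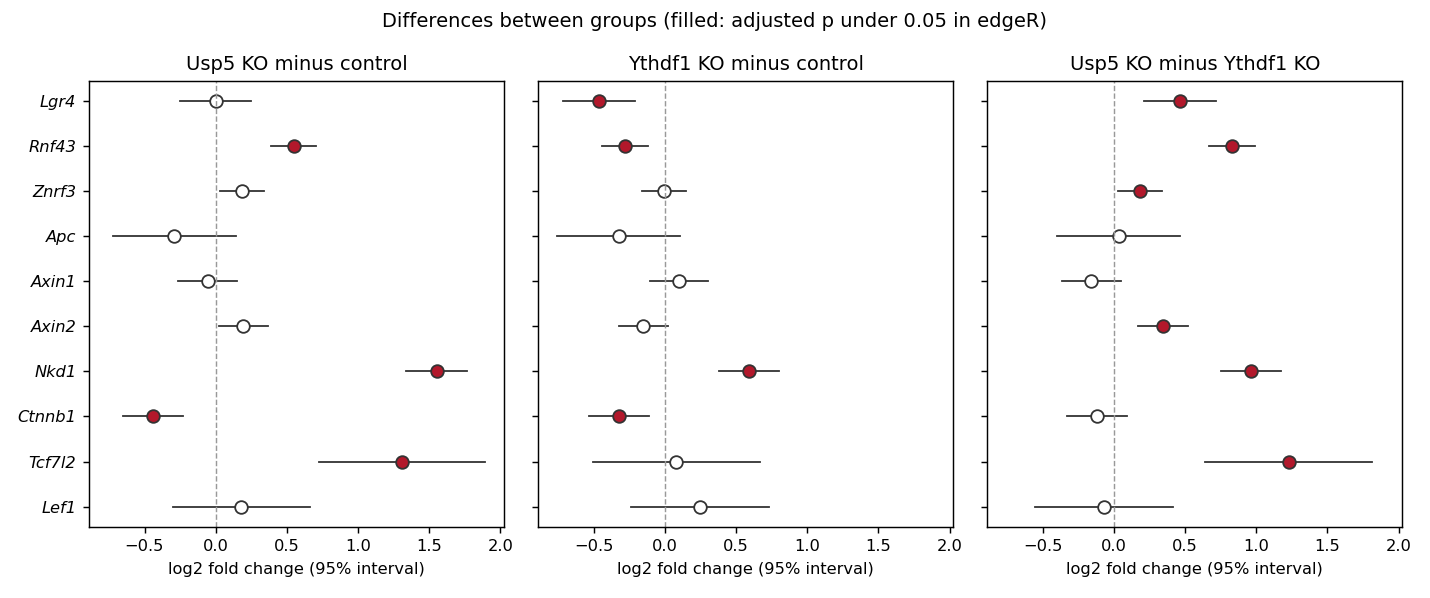
Log2 fold change of the 10 genes with its 95% interval (horizontal axis, the same in all panels) in the 3 comparisons; filled points passed an adjusted p of 0.05 in edgeR. Nkd1 is to the right of 0 in every panel, Rnf43 is on opposite sides of 0 in the knockouts (0.55 and -0.28), and Tcf7l2 is filled in the panels with the Usp5 knockout.

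At the cell surface, Rnf43 and Znrf3 remove Frizzled receptors, and Lgr4, a receptor for R-spondins, counters them. Rnf43 measured 89.6, 89.8 and 98.7 CPM in controls, 129.0, 140.6 and 136.9 CPM in the Usp5 knockout and 74.6, 75.8 and 78.4 CPM in the Ythdf1 knockout. Every Usp5 knockout sample lay above every control and every Ythdf1 knockout sample below, with no overlap among the 3 groups. The log2 fold changes against control were 0.55 ± 0.07 (SE, adjusted p = 0.00051) and -0.28 ± 0.07 (adjusted p = 0.00908), and the knockouts differed by 0.83 ± 0.07 (adjusted p = 1.47e-05).

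Znrf3, the close relative of Rnf43, measured 63.1, 64.4 and 69.5 CPM in controls, 74.2, 73.7 and 75.3 CPM in the Usp5 knockout and 63.4, 68.3 and 64.5 CPM in the Ythdf1 knockout. The Usp5 knockout samples were again the highest of the 9, but by a small margin. Against control the log2 difference was 0.18, with a 95% interval of 0.03 to 0.34 before adjustment and an adjusted p of 0.0917, so it did not pass. It passed in 3 of 19 other fits. Those were a correction for GC content and length (0.18, adjusted p = 0.0345), DESeq2 (0.19, adjusted p = 0.042) and the fit without control replicate 3 (0.22, adjusted p = 0.034). The Ythdf1 knockout difference was -0.00 with an interval of -0.16 to 0.15. The direct comparison gave 0.19 (adjusted p = 0.048), a call that was lost in 6 of the 9 fits that left out 1 sample. Those were the fits without control replicate 1 (adjusted p = 0.0627) or 2 (0.0691), Usp5 knockout replicate 2 (0.0533) or 3 (0.0958), and Ythdf1 knockout replicate 1 (0.106) or 3 (0.0981). The direct call was also lost with no filter on low counts (adjusted p = 0.0925) and under the correction for GC content and length, which gave 0.09 (adjusted p = 0.192).

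Lgr4 was the steadiest gene among controls, at 17.3, 17.2 and 17.3 CPM. It measured 17.1, 15.6 and 19.1 CPM in the Usp5 knockout, a range that encloses the controls, and 10.7, 13.7 and 13.1 CPM in the Ythdf1 knockout, all under every other sample. The Ythdf1 knockout differed from control by -0.46 ± 0.11 (SE, log2, adjusted p = 0.00725). After the correction for GC content and length this was -0.15 (adjusted p = 0.278), and the direct difference between knockouts, 0.46 (adjusted p = 0.00727), became 0.17 (adjusted p = 0.196). For the Usp5 knockout the log2 difference from control was -0.00, with a 95% interval of -0.25 to 0.25.

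Within the destruction complex, Apc holds beta-catenin in the complex and Axin1 is its constant scaffold. Apc measured 79.2, 82.4 and 124.9 CPM in controls, 65.5, 83.5 and 85.0 CPM in the Usp5 knockout and 70.5, 93.8 and 64.2 CPM in the Ythdf1 knockout. Control replicate 3 was above all 8 other samples, and the groups overlapped. The log2 differences from control were -0.29 (95% interval -0.72 to 0.14, adjusted p = 0.325) and -0.32 (-0.76 to 0.11, adjusted p = 0.196), and neither passed. Without control replicate 3 they were -0.05 and -0.09, and with the mitochondrial share of counts as a covariate, an alternative added after seeing the data, they were -0.45 (adjusted p = 0.0129) and -0.41 (adjusted p = 0.0075). With no filter on low counts, the Ythdf1 knockout difference was -0.37 and passed (adjusted p = 0.037). The sign of the Ythdf1 knockout difference turned under the GC and length correction, to 0.19 (adjusted p = 0.175). Its relative Apc2 was near the detection limit, with means of 0.44, 0.42 and 0.63 CPM in controls, Usp5 knockout and Ythdf1 knockout.

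Axin1 varied little, from 87.7 to 109.2 CPM in controls, 92.3 to 102.9 CPM in the Usp5 knockout and 103.2 to 112.5 CPM in the Ythdf1 knockout. The log2 differences from control were -0.06 (95% interval -0.26 to 0.15) and 0.10 (-0.10 to 0.31), with adjusted p of 0.706 and 0.39. Both signs depended on the setting. The knockouts did not overlap each other, but their difference of -0.16 did not pass (adjusted p = 0.179).

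Ctnnb1, the gene for beta-catenin, measured 651, 675 and 545 CPM in controls, 445, 443 and 491 CPM in the Usp5 knockout and 485, 493 and 520 CPM in the Ythdf1 knockout. All 6 knockout samples were below all 3 controls, and control replicate 3 was the lowest control. The log2 fold change was -0.44 ± 0.10 (SE, adjusted p = 0.00962) in the Usp5 knockout and -0.32 ± 0.10 (adjusted p = 0.0188) in the Ythdf1 knockout. The Ythdf1 knockout call was lost without control replicate 1 (-0.29, adjusted p = 0.0596), control replicate 2 (-0.26, adjusted p = 0.0725) or Ythdf1 knockout replicate 1 (-0.33, adjusted p = 0.0576). The knockouts differed from each other by -0.12, with a 95% interval of -0.33 to 0.09. Ulk4, on the opposite strand, shares 759 exon bases with Ctnnb1 in the GENCODE M21 annotation, and the sources used here do not give the strand used in counting. Its 1509 counts over all 9 samples compare with 12662 to 29282 counts of Ctnnb1 in a single sample.

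Axin2 and Nkd1 are feedback inhibitors that beta-catenin switches on in many cell types: Axin2 rebuilds the destruction complex, and Nkd1 binds Dishevelled. Their promoters are shown because these genes are textbook targets whose differences were of unlike size here. They come from RefSeq (GRCm38.p6) and run from 250 bases before to 50 after the annotated start, at chr8:88527383-88527682 for Nkd1 and chr11:108920099-108920398 for Axin2, both on the plus strand. Neither window holds the Tcf and Lef motif, searched on both strands in 4 spellings (CTTTGAA first, then CTTTGAT, next CTTTGTA and lastly CTTTGTT), nor the core CTTTG that all of them contain. The motif is in 16.9% and the core in 53.9% of 32851 promoter windows of this length. Sequence outside these windows was not searched, so the absence holds for the windows alone.
Nkd1: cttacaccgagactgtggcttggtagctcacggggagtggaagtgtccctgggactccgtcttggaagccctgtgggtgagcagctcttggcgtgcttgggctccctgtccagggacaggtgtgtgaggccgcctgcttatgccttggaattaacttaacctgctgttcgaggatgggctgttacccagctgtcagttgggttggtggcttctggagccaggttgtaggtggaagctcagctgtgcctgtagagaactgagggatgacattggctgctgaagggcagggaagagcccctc
Axin2: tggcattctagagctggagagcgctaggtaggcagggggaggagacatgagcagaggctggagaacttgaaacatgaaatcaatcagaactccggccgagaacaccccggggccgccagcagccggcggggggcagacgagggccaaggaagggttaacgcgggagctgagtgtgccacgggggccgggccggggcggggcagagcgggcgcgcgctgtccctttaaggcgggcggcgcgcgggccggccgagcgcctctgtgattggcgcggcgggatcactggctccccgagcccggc

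Nkd1 measured 227.7, 216.0 and 267.0 CPM in controls, 709.8, 732.3 and 643.1 CPM in the Usp5 knockout and 360.5, 352.3 and 356.9 CPM in the Ythdf1 knockout. The 3 groups were fully separated, with the Ythdf1 knockout between the others. The log2 fold change was 1.55 ± 0.10 (SE, adjusted p = 3.88e-06) in the Usp5 knockout and 0.59 ± 0.09 (adjusted p = 0.000708) in the Ythdf1 knockout. The direct difference of 0.96 ± 0.10 (adjusted p = 3.2e-05) put the Usp5 knockout 1.95-fold above the Ythdf1 knockout. Nkd2, the other Naked gene, had 0 counts in all 9 samples.

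Axin2 differed far less between groups. It measured 390, 370 and 406 CPM in controls, 468, 454 and 411 CPM in the Usp5 knockout and 346, 349 and 355 CPM in the Ythdf1 knockout. The groups were ordered without overlap, the Usp5 knockout highest and the Ythdf1 knockout lowest, though Usp5 knockout replicate 3 and control replicate 3 were close. Neither difference from control passed: 0.19 on the log2 scale in the Usp5 knockout (95% interval 0.02 to 0.37 before adjustment, adjusted p = 0.107) and -0.15 in the Ythdf1 knockout (-0.32 to 0.02, adjusted p = 0.139). Between the knockouts the difference of 0.34 ± 0.08 passed (adjusted p = 0.00484). The Ythdf1 knockout difference was -0.29 and passed with scaling by library size alone (adjusted p = 0.00881), and was -0.24 and passed under the GC and length correction (adjusted p = 0.021). The antisense neighbour Gm11670, which overlaps Axin2 by 209 exon bases, had 5 counts in all.

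Tcf7l2 and Lef1 are the DNA-binding proteins that beta-catenin joins on its targets. RefSeq gives Tcf7l2 more than 1 start, and windows at chr19:55741560-55741859 and chr19:55895071-55895370, both on the plus strand, are shown because the gene rose in the Usp5 knockout. The upstream window has the core on the minus strand, read as CAAAG, 111 bases before the start, and the downstream window has CTTTGTT 14 bases before the start, both in capitals. Whether matches go with the calls was not tested, and a gene with more annotated starts had more windows to match. Windows of Lef1, which did not pass in either knockout, hold the core, and 1 of them holds the motif as TACAAAG. Windows of Rnf43 and Ctnnb1, which passed in both, and of Lgr4 hold neither. A match of letters is a description and shows no binding, and the counts do not tell which start was used.
Tcf7l2 upstream start: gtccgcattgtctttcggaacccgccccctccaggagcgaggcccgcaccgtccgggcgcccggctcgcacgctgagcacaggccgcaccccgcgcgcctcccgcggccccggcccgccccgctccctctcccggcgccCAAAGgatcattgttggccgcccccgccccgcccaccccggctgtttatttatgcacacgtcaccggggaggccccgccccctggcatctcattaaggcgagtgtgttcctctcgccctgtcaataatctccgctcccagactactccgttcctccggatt
Tcf7l2 downstream start: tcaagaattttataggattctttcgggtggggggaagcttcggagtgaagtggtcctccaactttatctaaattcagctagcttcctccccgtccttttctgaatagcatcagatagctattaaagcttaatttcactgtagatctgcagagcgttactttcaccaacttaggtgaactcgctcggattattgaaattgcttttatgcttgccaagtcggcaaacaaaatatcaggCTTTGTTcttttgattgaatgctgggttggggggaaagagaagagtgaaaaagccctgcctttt

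Tcf7l2 measured 18.1, 20.5 and 37.4 CPM in controls, 57.7, 78.8 and 50.5 CPM in the Usp5 knockout and 23.1, 31.4 and 25.3 CPM in the Ythdf1 knockout. All Usp5 knockout samples were above the 6 others, and control replicate 3 was above every Ythdf1 knockout sample. The log2 fold change was 1.31 ± 0.26 (SE, adjusted p = 0.00655) in the Usp5 knockout, the widest error of any of the 10 genes, and 1.69 (adjusted p = 0.000198) without control replicate 3. Against control, the Ythdf1 knockout was 0.08 higher (95% interval -0.50 to 0.67, adjusted p = 0.821), with a sign that depended on the setting. The knockouts differed by 1.23 ± 0.26 (adjusted p = 0.00352). In each group the sample with the highest mitochondrial share also had the highest Tcf7l2 and Lef1. With that share as a covariate, Tcf7l2 in the Usp5 knockout was 1.08 above control and still passed.

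Lef1 was the least abundant gene, at 4.5, 4.0 and 7.5 CPM in controls, 5.8, 6.2 and 5.9 CPM in the Usp5 knockout and 5.8, 7.4 and 5.7 CPM in the Ythdf1 knockout. Control replicate 3 was the highest of all 9 samples, and the groups overlapped. The log2 differences from control were 0.18 (95% interval -0.30 to 0.66, adjusted p = 0.602) and 0.25 (-0.24 to 0.73, adjusted p = 0.374). Without control replicate 3 they were 0.48 (adjusted p = 0.0332) and 0.55 (adjusted p = 0.0127), and both then passed. With the mitochondrial share as a covariate they were 0.02 (adjusted p = 0.923) and 0.17 (adjusted p = 0.307), and neither passed. The related Tcf7 was the most abundant family member by CPM, with means of 161, 178 and 168 CPM in controls, Usp5 knockout and Ythdf1 knockout, and passed in neither comparison. Tcf7l1 had 10 counts over all samples and was not tested. Gm43352, opposite Lef1 with 1208 shared exon bases, is listed in the count table as Lef1os1 and had 60 counts over the 9 samples.

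Ratios of paired genes within a sample remove differences in depth and scaling between samples. The ratio of Nkd1 to Axin2, each in RPKM, was 0.83, 0.83 and 0.94 in the 3 controls. It was 2.16, 2.30 and 2.23 in Usp5 knockout samples and 1.48, 1.44 and 1.43 in Ythdf1 knockout samples. The groups did not overlap, and both knockouts were above control. Rnf43 to Znrf3 was 1.73, 1.70 and 1.73 in controls, 2.11, 2.32 and 2.21 in Usp5 knockout samples and 1.43, 1.35 and 1.48 in Ythdf1 knockout samples, on opposite sides of control. Axin2 to Axin1 was 3.57, 3.57 and 4.62 in controls, 4.54, 4.84 and 4.45 in Usp5 knockout samples and 3.24, 3.38 and 3.15 in Ythdf1 knockout samples. Here control replicate 3 overlapped the Usp5 knockout. Tcf7l2 to Lef1 was 4.71 to 5.95 in controls, 10.0 to 14.8 in Usp5 knockout samples and 4.69 to 5.23 in Ythdf1 knockout samples, and control replicate 3, at 5.84, lay within the other controls' range. With 3 samples a group, a two-sided exact permutation test cannot go below p = 0.1, which it reached for 10 of the 12 differences between groups over these 4 ratios (0.12 after Benjamini-Hochberg adjustment over the 12). The exceptions, at an exact permutation p of 0.3 (adjusted 0.3), were Axin2 to Axin1 in the Usp5 knockout and Tcf7l2 to Lef1 in the Ythdf1 knockout, both against control.

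**Figure D3:**
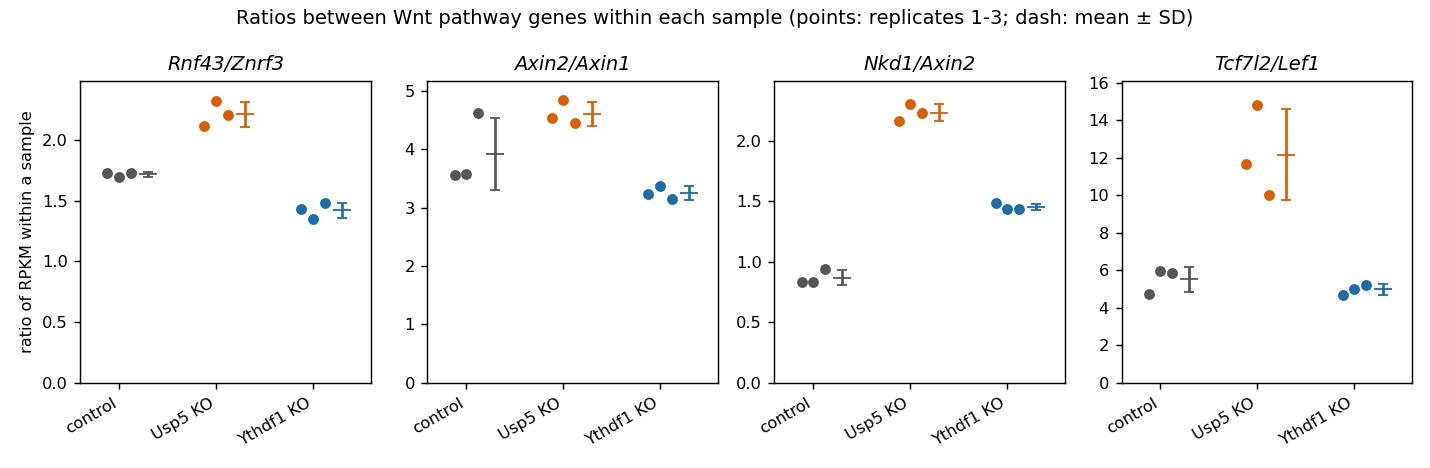
Ratio of RPKM between paired genes within each sample (vertical axes start at 0) by group; points are replicates 1 to 3 from left to right and dashes with bars are the mean ± SD. The mean ratio of Nkd1 to Axin2 is 0.868 for controls, 2.23 for the Usp5 knockout and 1.45 for the Ythdf1 knockout, and the ratio of Tcf7l2 to Lef1 is separated from both other groups in the Usp5 knockout.

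Genes with the pattern most like Nkd1 and Tcf7l2 were sought among 11875 genes by the root mean square difference of log2 CPM, centred on the control mean of each gene, over all 9 samples. For Nkd1 the nearest were Slc26a2 (0.130), a sulfate transporter, Fetub (0.133), a liver-secreted protease inhibitor, Ppp1r9a (0.139), the activin antagonist Fst (0.143) and Pid1 (0.161). Fst, for example, had mean levels of 64.5, 204 and 104 CPM in controls, Usp5 knockout and Ythdf1 knockout. For Tcf7l2 the nearest were Dppa2 (0.166), the homeobox gene Vax2 (0.205), the Mediator subunit Med15 (0.216), Erich2 (0.229) and Pof1b (0.231). These distances describe likeness over the same samples only, and carry no test.

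Beyond the 10 genes, 161 other pathway genes in 9 lists were examined, of which 103 were tested. In the Usp5 knockout 19 rose, 14 fell and 70 did not pass, and in the Ythdf1 knockout 26 rose, 24 fell and 53 did not pass. The shares called, 33 and 50 of 103, stand beside the 19.8% and 46.5% of all genes given above, and the median log2 fold changes were 0.04 and 0.05. The Usp5 knockout count was 20 without control replicate 1 and 21 without control replicate 2 or Usp5 knockout replicate 2. These totals count each gene once, whereas the list counts below count a gene on every list that holds it. The list counts are read beside the shares of all genes, 9.96% higher and 9.8% lower in the Usp5 knockout and 23.7% higher and 22.8% lower in the Ythdf1 knockout.

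Most Wnt ligand genes were barely detected. Of 19 examined, 4 were tested, and the other 15 had at most 42 counts over the 9 samples. Among those 15, Wnt4 had 15, 13 and 7 counts in controls and 0 in every knockout sample. Wnt10b had 2, 1 and 3 counts in the Ythdf1 knockout and 0 elsewhere. These 2 genes were picked out of the 15 by their counts, which did not reach the filter and carry no test here. Wnt10a fell by 1.93 ± 0.12 on the log2 scale in the Usp5 knockout (6.46 ± 0.69 against 24.5 ± 2.42 CPM, SD, adjusted p = 4.17e-06) and rose by 0.88 ± 0.11 in the Ythdf1 knockout (45.1 ± 4.66 CPM, adjusted p = 0.000197). Wnt5a rose in both, by 0.90 in the Usp5 knockout (94.0 ± 7.63 against 50.6 ± 5.18 CPM, adjusted p = 0.000131) and by 0.55 in the Ythdf1 knockout (74.2 ± 3.45 CPM, adjusted p = 0.00101). Wnt6 rose by 0.62 in the Ythdf1 knockout (182 ± 24.6 against 119 ± 29.5 CPM, adjusted p = 0.0192), a call lost without Ythdf1 knockout replicate 1 (0.0868) or 3 (0.0803), with library sizes alone (0.47, adjusted p = 0.0728) and under the GC and length correction (0.22, adjusted p = 0.172). All 4 R-spondin genes, the ligands of Lgr4, had 2 counts or fewer in all. Among 16 extracellular inhibitors 2 were tested, Notum and Kremen1, and neither passed in the edgeR fit used throughout. Notum, which encodes an enzyme that inactivates Wnt proteins, differed from control by -0.50 (adjusted p = 0.14) in the Usp5 knockout and by -0.57 (adjusted p = 0.0633) in the Ythdf1 knockout. Notum lay close to the threshold: it passed in the Ythdf1 knockout in 10 of 19 other fits, among them DESeq2 (-0.58, adjusted p = 0.0403) and the GC and length correction (-0.97, adjusted p = 0.00143), and in the Usp5 knockout in 2 of 19.

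Of 11 Wnt receptors and co-receptors tested, 3 rose in the Usp5 knockout, and in the Ythdf1 knockout 1 rose and 5 fell. Fzd10, a Frizzled receptor, rose in both, by 0.72 ± 0.12 and 1.01 ± 0.12 (SE, log2; 70.3 ± 8.62 CPM in controls, 116 ± 10.5 and 142 ± 16.5 CPM in the knockouts). The co-receptor gene Lrp6 fell by 0.80 ± 0.11 in the Ythdf1 knockout, from 161 ± 18.4 to 92.5 ± 8.52 CPM (adjusted p = 0.000257), and differed by -0.08 (adjusted p = 0.64) in the Usp5 knockout. Ror1, a receptor for non-canonical Wnts, fell by 0.90 ± 0.13 in the Ythdf1 knockout. Lgr6, a relative of Lgr4, fell from 3.22 ± 0.30 CPM to 0.44 ± 0.15 CPM there (-2.87 ± 0.29, adjusted p = 5.3e-05). Its fall in the Usp5 knockout (-0.99, adjusted p = 0.0189) was lost without control replicate 1 (0.0638), control replicate 2 (0.0835) or Usp5 knockout replicate 2 (0.0774). Lgr5, the third R-spondin receptor of this family, passed in neither (means 66.9, 83.6 and 59.8 CPM).

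Among 23 tested kinases, adaptors and ubiquitin components of the destruction complex, 3 rose and 3 fell in the Usp5 knockout, and 1 rose and 7 fell in the Ythdf1 knockout. Over the 19 other fits the number called ran from 3 to 9 and from 7 to 14. A fit of the 6 samples of the Usp5 comparison alone gave 3, as did leaving out control replicate 2 or Usp5 knockout replicate 2. The Dishevelled gene Dvl3 rose by 0.95 ± 0.16 (76.1 ± 12 against 39.5 ± 8.58 CPM, adjusted p = 0.0023) and the kinase gene Gsk3b by 0.60 ± 0.13 in the Usp5 knockout. Skp1, part of the ubiquitin ligase that takes beta-catenin, fell in both, by 0.45 ± 0.09 there and by 0.73 ± 0.09 in the Ythdf1 knockout (adjusted p = 0.00798 and 0.000197). The Apc-binding membrane adaptor Amer1 fell by 1.08 ± 0.14 in the Ythdf1 knockout, and the ligase scaffold Cul1 fell by 0.76 ± 0.10, from 154 ± 11.2 to 91.2 ± 6.63 CPM. The kinase gene Csnk1e rose by 0.44 (adjusted p = 0.00318) in the Ythdf1 knockout, but by 0.07 (adjusted p = 0.714) under the GC and length correction.

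Of 21 nuclear partners tested, 6 rose and 1 fell in the Usp5 knockout, and 2 rose and 3 fell in the Ythdf1 knockout. Over the 19 other fits the number called ran from 3 to 10 and from 3 to 9. It was 3 in the Usp5 knockout without control replicate 1, control replicate 2 or Usp5 knockout replicate 2, and 3 in the Ythdf1 knockout without control replicate 2 or Ythdf1 knockout replicate 1. The corepressor gene Tle4 rose in both, from 37.5 ± 4.13 to 83.9 ± 6.58 CPM (1.16 ± 0.10, adjusted p = 3.93e-05) and to 55.1 ± 4.38 CPM (0.56 ± 0.10, adjusted p = 0.00154). The corepressor gene Ctbp2 rose by 0.83 ± 0.15 in the Usp5 knockout and fell by 0.46 ± 0.16 in the Ythdf1 knockout (adjusted p = 0.0382). The fall was lost with limma-voom (0.07) and without control replicate 2 (0.139), control replicate 3 (0.0683), Ythdf1 knockout replicate 1 (0.0771) or Ythdf1 knockout replicate 3 (0.0877). Hbp1, a repressor of Tcf-driven transcription, rose by 0.64 ± 0.09 in the Ythdf1 knockout, and the corepressor gene Tle2 fell by 0.79 ± 0.18. On the junction list, where beta-catenin has its adhesive role, Jup (plakoglobin) rose in both, from 296 ± 18.4 to 398 ± 19.9 and 473 ± 21.4 CPM, and Vcl (vinculin) fell by 0.52 ± 0.07 in the Ythdf1 knockout.

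Widely used Wnt target genes, leaving out the genes described first, did not move as one. Of 22 tested, 4 rose and 3 fell in the Usp5 knockout, with a median log2 fold change of 0.15, and 13 rose and 4 fell in the Ythdf1 knockout, with a median of 0.49, against -0.01 and 0.02 over all genes. Sp5, a transcription factor gene and direct target, rose by 0.75 ± 0.10 in the Usp5 knockout (384 ± 46.1 against 229 ± 21.2 CPM) and by 0.61 ± 0.10 in the Ythdf1 knockout (349 ± 12.7 CPM, adjusted p = 0.00104). The latter was 0.24 (adjusted p = 0.0825) under the GC and length correction, and the direct difference did not pass (0.14, adjusted p = 0.303). Nrcam, an adhesion gene, fell by 2.78 ± 0.13 (2.87 ± 0.45 against 19.6 ± 0.62 CPM) and, in the Ythdf1 knockout, by 1.27 ± 0.12 (8.14 ± 0.83 CPM). The receptor gene Ephb2 rose by 1.32 ± 0.25 in the Usp5 knockout but from a mean of only 0.58 CPM. In the Ythdf1 knockout its 0.73 passed narrowly (adjusted p = 0.0441), and that call was lost in 15 of 19 other fits. Prox1 rose by 1.17 ± 0.16 in the Ythdf1 knockout, from 24.1 ± 5.83 to 54.0 ± 7.36 CPM.

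Pericentral hepatocyte targets were 13 of 19 tested. In the Usp5 knockout 1 rose and 5 fell (median -0.34), and in the Ythdf1 knockout 4 rose and 3 fell (median -0.15). The 1 that rose in the Usp5 knockout was Sp5, which is also counted among the general targets above. These counts, like those of the other lists, leave out the genes described first, among them the targets Axin2, Nkd1, Rnf43 and Znrf3. In the Usp5 knockout those were higher by 0.19, 1.55, 0.55 and 0.18 (log2), and Nkd1 and Rnf43 passed. In the Ythdf1 knockout they differed by -0.15, 0.59, -0.28 and -0.005, and again Nkd1 and Rnf43 passed. Tbx3, a transcription factor gene, fell in both, from 135 ± 13.4 to 62.9 ± 2.31 CPM (-1.11 ± 0.08) and to 84.1 ± 2.46 CPM (-0.69 ± 0.08). The glutamate transporter gene Slc1a2 fell by 1.29 ± 0.16 in the Usp5 knockout and rose by 0.65 ± 0.15 in the Ythdf1 knockout, at 1.44 to 5.59 CPM. Oat, for ornithine aminotransferase, fell by 1.01 ± 0.12 in the Ythdf1 knockout, and its smaller fall in the Usp5 knockout (-0.42, adjusted p = 0.0341) was lost in 9 of 19 other fits. Cyp27a1, for a sterol hydroxylase, rose by 0.93 ± 0.10 in the Ythdf1 knockout and fell by 0.45 in the Usp5 knockout (adjusted p = 0.0128), a fall lost without control replicate 2 (0.0652).

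**Figure D4:**
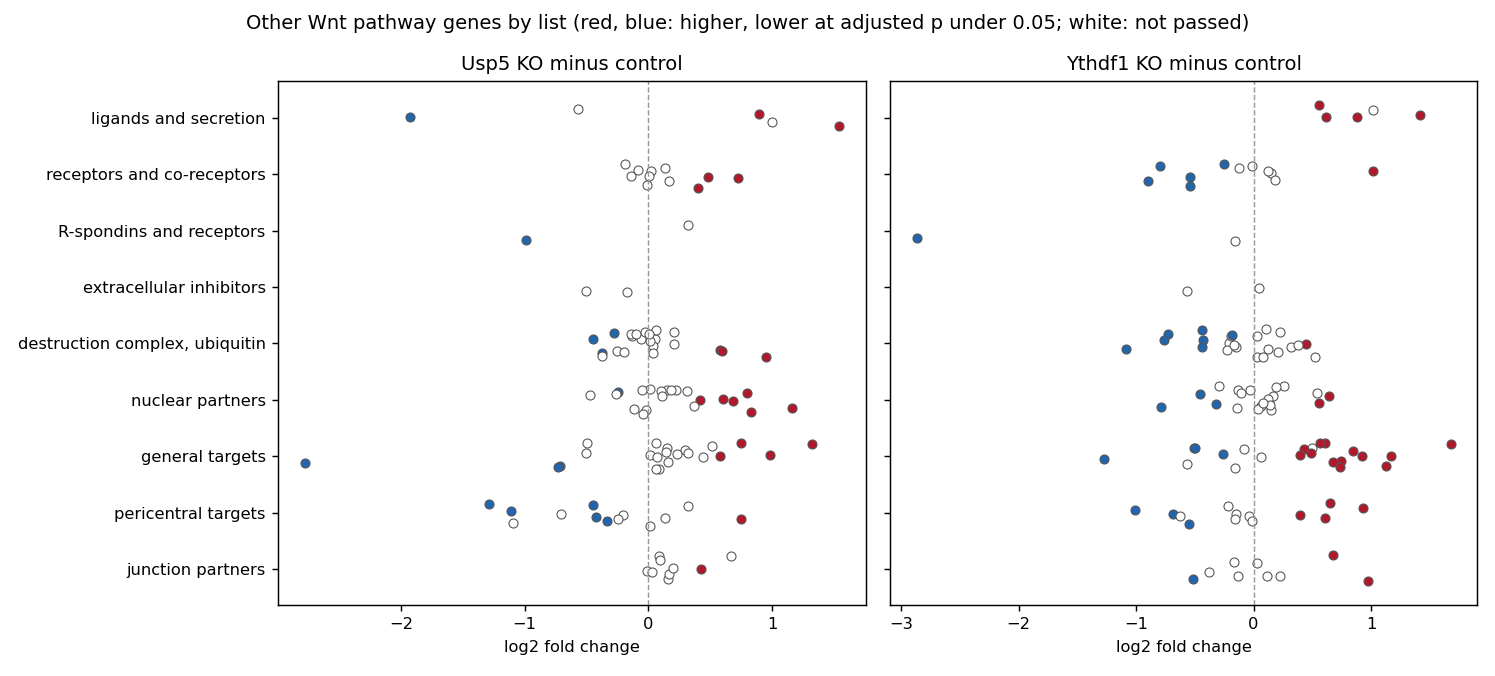
Log2 fold change (horizontal axes, not the same in both panels) of the 103 tested genes of the 9 pathway lists (vertical axis), 1 point a gene and list, in each knockout against control; red and blue points passed an adjusted p of 0.05 as higher and lower. Of 22 general targets tested, 13 are red and 4 blue in the Ythdf1 knockout, where 23.7% of all genes were higher and 22.8% lower. In the Usp5 knockout 4 are red and 3 blue, where 9.96% of all genes were higher and 9.8% lower.

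**Figure D5:**
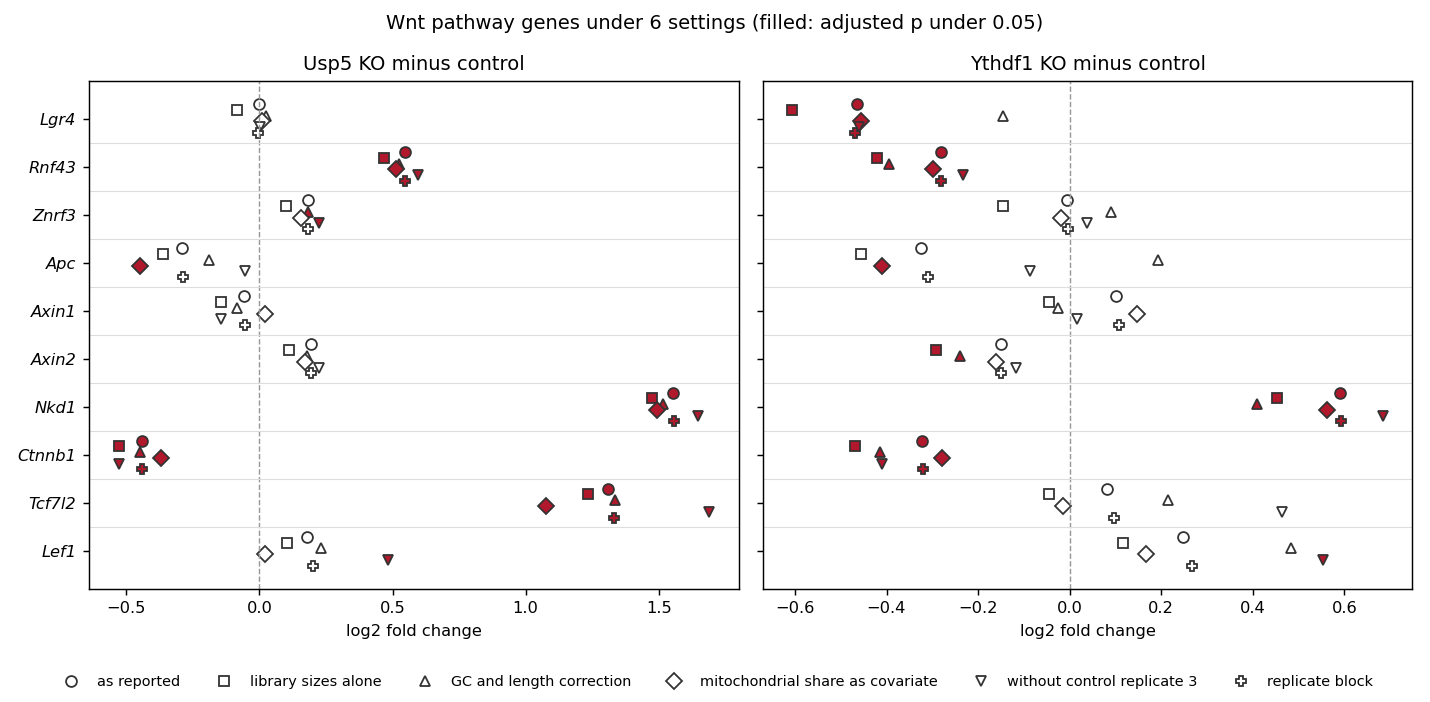
Log2 fold change of the 10 genes against control (horizontal axes, not the same in both panels) under 6 ways of fitting, by marker shape; filled markers passed an adjusted p of 0.05. In the Usp5 knockout Nkd1, Tcf7l2, Rnf43 and Ctnnb1 are filled under all 6, and in the Ythdf1 knockout Lgr4 is open under the GC and length correction (-0.15).

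The calls for Nkd1, Tcf7l2, Rnf43 and Ctnnb1 in the Usp5 knockout, and for Nkd1 and Rnf43 in the Ythdf1 knockout, held in each of 19 other fits, which are shown in part in the plot of fold changes by setting. Over those fits Nkd1 ranged from 1.47 to 1.65 and Tcf7l2 from 1.08 to 1.69 in the Usp5 knockout.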

How the data were processed

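RNA from 9 Hepa 1-6 samples was sequenced after mRNA selection, per the labels' protocols. The authors deposited 1 table of estimated counts per gene, not normalized, with gene lengths. fastp 0.23.2, STAR 2.7.10a, Salmon 1.9.0 and the GRCm39 build are named in the submitters' processing notes, and the sources used here do not give the strand setting. The deposited estimated counts were already whole numbers. Samples were grouped by title. Genes were kept by edgeR's filterByExpr (13661 of 53647), scaled by TMM and tested with glmQLFit and glmQLFTest (edgeR 4.0.16, R 4.3.3) over all 9 samples with group as the only term, and p-values were adjusted by Benjamini-Hochberg over all genes tested, with a threshold of 0.05. Standard errors are the log2 fold change divided by the square root of its F statistic, and intervals are 95%. CPM used TMM-scaled library sizes, and RPKM the deposited lengths. Named pathway genes were taken from the 2 with the largest change in each direction and list, among those past the threshold with a mean of at least 1 CPM in the higher group; not every one is printed. Nkd2, Apc2, Lgr5, Lgr6, Tcf7 and Tcf7l1 are named as relatives of the 10 genes, and Notum and Kremen1 were named after their values were seen. Wnt4 and Wnt10b were likewise named for their counts, outside the rule for named genes. The 10 genes, the lists and the named-gene rule were chosen with earlier results of these data known. As alternatives, DESeq2 1.42.0 and voom (limma 3.58.1) were run, and edgeR with library sizes alone, RLE scaling, no filter, a stricter filter, 6 samples only, a replicate block, a GC and length correction, each sample left out and, added later, the mitochondrial share. Scripts were tested on simulated data. There, 73.5% and 75.8% of 2-fold changes were recovered with the Usp5 and Ythdf1 group layouts, and 36.7% and 43.9% of 1.5-fold changes. In each simulation 98 or 99 genes were changed by each fold, among 13440 and 13476 tested. Far more genes were called in the data, and the spread and base levels were the same in both simulations. These rates are therefore not the power of the 2 comparisons. A difference that did not pass can still be present. Promoters were matched by symbol to RefSeq GRCm38.p6 for 7 of 10 genes, and gene overlaps were taken from GENCODE M21. Neither build is that of the counts, and neither was used with them except for GC content.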

Additional observations from a re-analysis of the deposited data

How the results depend on the processing

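The 10 genes were refitted under 19 other settings in each comparison. In the Usp5 knockout against control, the 2700 genes called became 1756 with 6 samples only and 1494 to 4371 when 1 sample was left out. The 4 pathway genes called there became 6 under DESeq2 and 4 to 6 when 1 sample was left out, and the 33 pathway list genes called became 20 to 47. Some differences that had not passed changed sign, and the cause was not tested. In the Usp5 knockout against control, Lgr4 was 0.0065 with RLE scaling, 0.0061 with DESeq2, 0.024 with the GC and length correction, 0.010 with the mitochondrial share as a covariate and -0.077 to 0.063 when 1 sample was left out. Axin1 was 0.021 with the mitochondrial covariate and -0.14 to 0.0093 when 1 sample was left out, Apc2 was -0.44 to 0.24 and Lrp6 -0.14 to 0.017. In the Ythdf1 knockout against control, library sizes alone gave -0.045 for Axin1, -0.046 for Tcf7l2, -0.072 for Tcf7 and -0.096 for Kremen1, which was -0.0011 with no filter. The GC and length correction gave 0.19 for Apc, -0.026 for Axin1, 0.090 for Znrf3, 0.20 for Lgr5 and -0.094 for Tcf7, and the mitochondrial covariate -0.014 for Tcf7l2. Leaving out 1 sample gave -0.070 to 0.037 for Znrf3, -0.11 to 0.46 for Tcf7l2, -0.27 to 0.018 for Lgr5, -0.018 to 0.19 for Tcf7 and -0.0071 to 0.093 for Kremen1. Between the knockouts, Apc was -0.38 (adjusted p = 0.0145) with the GC and length correction, -0.040 with the mitochondrial covariate and -0.050 to 0.24 when 1 sample was left out, and Lef1 was -0.11 to 0.091. Of the calls made with and without the GC and length correction, 2489, 4307 and 5201 genes were shared in the Usp5, Ythdf1 and direct comparisons.

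Replicate numbers are shared between groups in the labels. Samples with the same number did not deviate together throughout, with correlations from -0.26 to 0.30, against -0.33 to 0.35 for samples with unlike numbers. Pairs of replicate 1 samples were all positive (0.30, 0.13 and 0.19), and those of replicates 2 and 3 were mixed in sign. With the replicate number as a block, 2346, 6198 and 6458 genes were called in the 3 comparisons, and 4, 4 and 5 of the 10 pathway genes. The difference lost under the block was Znrf3 between the knockouts (0.19, adjusted p = 0.0675). Depth limits Lef1 and Lgr4 most, and Wnt ligand and R-spondin genes under the filter were left out of the edgeR fit used throughout.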
